A study of Mus musculus with 12 samples.

Results

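The genes examined here are the mouse sorting nexins (Snx), the vacuolar protein sorting genes (Vps) and the EHD genes (Ehd) in 12 melanoma tumors. All protein-coding genes whose symbol starts with Snx, Vps or Ehd followed directly by a digit were taken, which gave 69 of the 21974 protein-coding genes in the count table. They comprise 30 Snx, 35 Vps and 4 Ehd genes. Bulk RNA sequencing covered 6 Arf6-null tumors, labelled BrafCA;Cdkn2af/f;Arf6f/f, and 6 wild-type tumors, labelled BrafCA;Cdkn2af/f. The floxed Cdkn2a and the BrafCA allele were therefore shared by both genotypes, and "wild type" refers to Arf6 only. The sources used here do not give how the floxed alleles were recombined, the strain or the age of the animals. The design speaks of matched tumors without labels that would link individual tumors across genotypes. The comparison asks how the loss of Arf6, a small GTPase of plasma membrane and endosome traffic, is reflected in the RNA of the wider endosomal sorting machinery.

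Sorting nexins bind phosphoinositides on endosomes through a PX domain, and many of them bend the membrane into tubules with a BAR domain. Vps proteins, first found in yeast, form most of the large endosomal complexes: retromer and retriever recycle cargo, tethers such as HOPS and GARP bring membranes together for fusion, and ESCRT complexes sort cargo for lysosomal breakdown. EHD proteins are ATPases that remodel membranes at recycling endosomes and caveolae.

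Arf6 itself averaged 18.3 ± 3.73 CPM in Arf6-null tumors and 111 ± 24.9 CPM in wild-type tumors (SD, n = 6 each), where CPM is a gene's read count relative to the scaled library total. Library totals ran from 21007954 to 45688253 counts in Arf6-null tumors and from 22211738 to 30326419 in wild-type tumors. Whether each tumor came from its own animal is not stated in the labels, and the p-values below reflect only the variation among these 12 samples. Some melanocyte genes were near the floor. Mlana had 0 counts in every library, and Tyr had 0 counts in all Arf6-null libraries and 2 over the wild-type libraries. Dct had 1 count over the libraries of each genotype. Sox10 averaged 0.146 and 0.437 CPM, and Pmel 0.971 and 0.920 CPM, in Arf6-null and wild-type tumors. Of the 8 genes of this marker list only 3 had enough counts to test: Pmel, Mitf and Gpnmb. The last 2 were not near the floor. Mitf averaged 18.2 ± 8.78 and 18.6 ± 6.74 CPM in Arf6-null and wild-type tumors, and Gpnmb 44.3 ± 50.6 and 38.95 ± 38.9 CPM. The skeletal muscle score, a mean log2 CPM over 19 marker genes, lay between -1.43 and 1.43 in Arf6-null tumors and between 0.37 and 6.53 in wild-type tumors. It was above 5 in wild-type replicates 3, 4 and 5. The fibroblast score was 0.98 log2 units lower on average in Arf6-null tumors (exact permutation p = 0.0433, two-sided), and the Schwann cell score 0.71 units lower (exact permutation p = 0.00649). A Y-linked score over 4 genes had a median of 5.45 in Arf6-null tumors (range -2.74 to 5.67). In wild-type tumors its median was -0.36 (range -3.96 to 5.81, exact permutation p = 0.141). None of the 12 marker and depth differences passed after adjustment (smallest adjusted p = 0.0779). Their part in the results below was not tested beyond the fits given beside them, and in bulk tumors fewer cells of a type cannot be told apart from less RNA per cell.

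No Snx, Vps or Ehd gene passed the main test with all 12 tumors, although several came close and 7 separated the genotypes without overlap. Of the 69 genes, 68 had enough counts to test. None reached an adjusted p of 0.05 in the quasi-likelihood F test of edgeR with TMM scaling and Benjamini-Hochberg adjustment over 16225 genes. The background was 1.15% of all tested genes (0.586% higher and 0.561% lower). At an unadjusted p under 0.05 there were 20, or 29.4% of the members, 12 with a higher and 8 with a lower mean in Arf6-null tumors, against 23.4% of all tested genes. Other tools called more: the Wald test of DESeq2 called 13 members, 7 higher and 6 lower, or 19.1% of the members against a background of 12.3% (5.78% higher and 6.48% lower). Limma-voom with quality weights called 8, 6 higher and 2 lower, or 11.8% of the members against a background of 6.14% (3.16% higher and 2.98% lower). The calls below are those of the main fit, edgeR with TMM scaling on these 16225 genes, unless another tool or setting is named.

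The differences were about as large as those of other genes of similar level. The median absolute log2 fold change was 0.202 for the members and 0.200 for the 8643 tested genes with a mean level between 10.6 and 134 CPM. The log2 fold change, Arf6-null over wild type, ran from -1.22 to 0.67 over the 68 members, with a median of 0.021 beside -0.027 over all tested genes. The sign of this median turned to -0.030 with upper-quartile scaling and to -0.019 with the muscle score in the fit. In 38 of the 68 members it was positive (55.9%, against 47.2% of all genes). Only 2 members, Ehd3 and Snx22, differed by at least 2-fold (2.94%, against 11.3% of all genes), and both were lower in Arf6-null tumors. At 1.5-fold there were 4 (5.88%, against 22.8% of all genes). The median coefficient of variation of the members was 12.1% in Arf6-null and 15.8% in wild-type tumors, beside 16.9% and 18.7% for the genes of similar level.

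**Figure D1:**
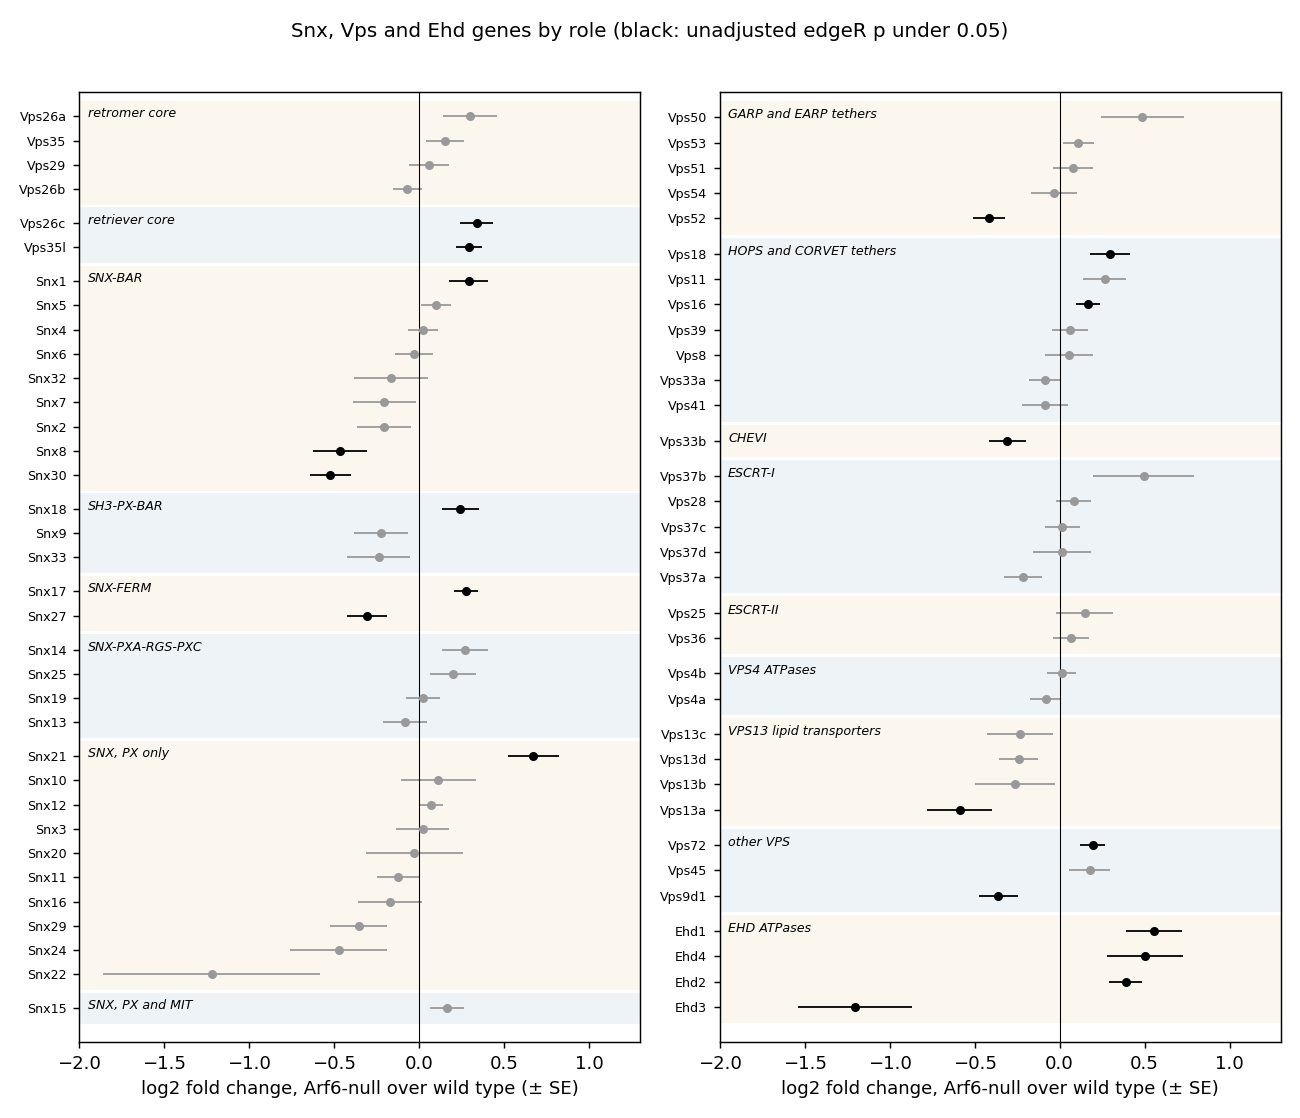
Log2 fold change of the 68 tested members (x axis, Arf6-null over wild type, points with ± SE from edgeR), arranged by role. Members in black had an unadjusted p under 0.05, and most of the others lay within 0.3 log2 units of 0.

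The genotypes did not overlap in 7 members, which is 10.3% of those tested, against 2.36% of all tested genes (1.15% higher and 1.21% lower). In 5 of them (Snx21, Ehd2, Vps35l, Snx17 and Vps72) every Arf6-null tumor exceeded every wild-type tumor, and in Vps52 and Snx30 every Arf6-null tumor was below. Among the 8643 genes of similar level the share without overlap was 2.63%. This is a count over samples and carries no test of its own. None of the 7 passed the main edgeR fit, where their adjusted p ran from 0.0528 for Snx21 to 0.142 for Vps72. With upper-quartile scaling edgeR called Snx30 and Vps52, and 210 of all 16225 genes. With a filter of 10 CPM in 6 libraries it called Vps52, and 124 of all 10124 genes.

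**Figure D2:**
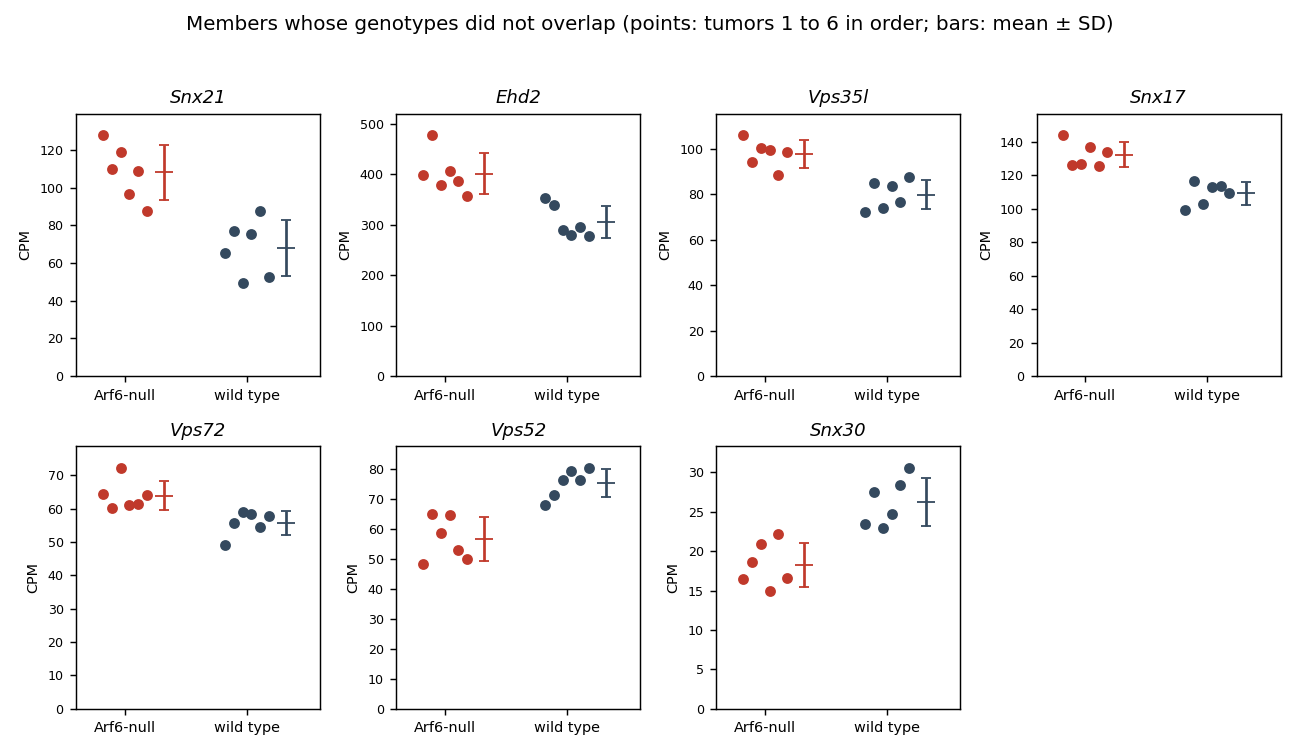
CPM (y axis, from 0) of the 7 members whose genotypes did not overlap, with 1 point per tumor, Arf6-null left and wild type right, and the mean ± SD beside the points (n = 6 each). Snx21 spanned 87.7 to 128 CPM in Arf6-null tumors and 49.6 to 87.4 CPM in wild-type tumors.

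Per kilobase, the most abundant members were spread over several roles. Lengths were the merged exons of each gene, and a second length, the median of its annotated protein-coding transcripts, changed the order of some members. On merged exons Snx3, a small PX protein of retromer sorting, stood at 79.3 CPM per kb in Arf6-null and 78.2 in wild-type tumors, and Ehd2 at 78.3 and 59.7. Snx5, a partner of Snx1 and Snx2 in retromer-linked tubules, followed at 65.9 and 61.5, and Snx9, an endocytic adaptor that binds dynamin, at 64.9 and 75.8. Snx17 was at 42.7 and 35.3 CPM per kb of merged exons but at 173 and 143 per kb of transcript, the highest value of all on that length. Its median transcript was 765 bases, against 3091 bases of merged exons. The median takes in short annotated transcripts, so this rank rests on the length used. At the other end, Snx31, a relative of Snx17, had 2 counts over all Arf6-null and 3 over all wild-type libraries, and was the member that did not pass the filter. Snx22 averaged 0.583 ± 0.451 CPM in Arf6-null and 1.36 ± 1.15 CPM in wild-type tumors (log2 fold change -1.22, SE 0.64, edgeR adjusted p = 0.27). It lies 18.4 kb from Snx1 on chromosome 9, whose log2 fold change was 0.29, and its exons overlap those of Ppib on the other strand.

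**Figure D3:**
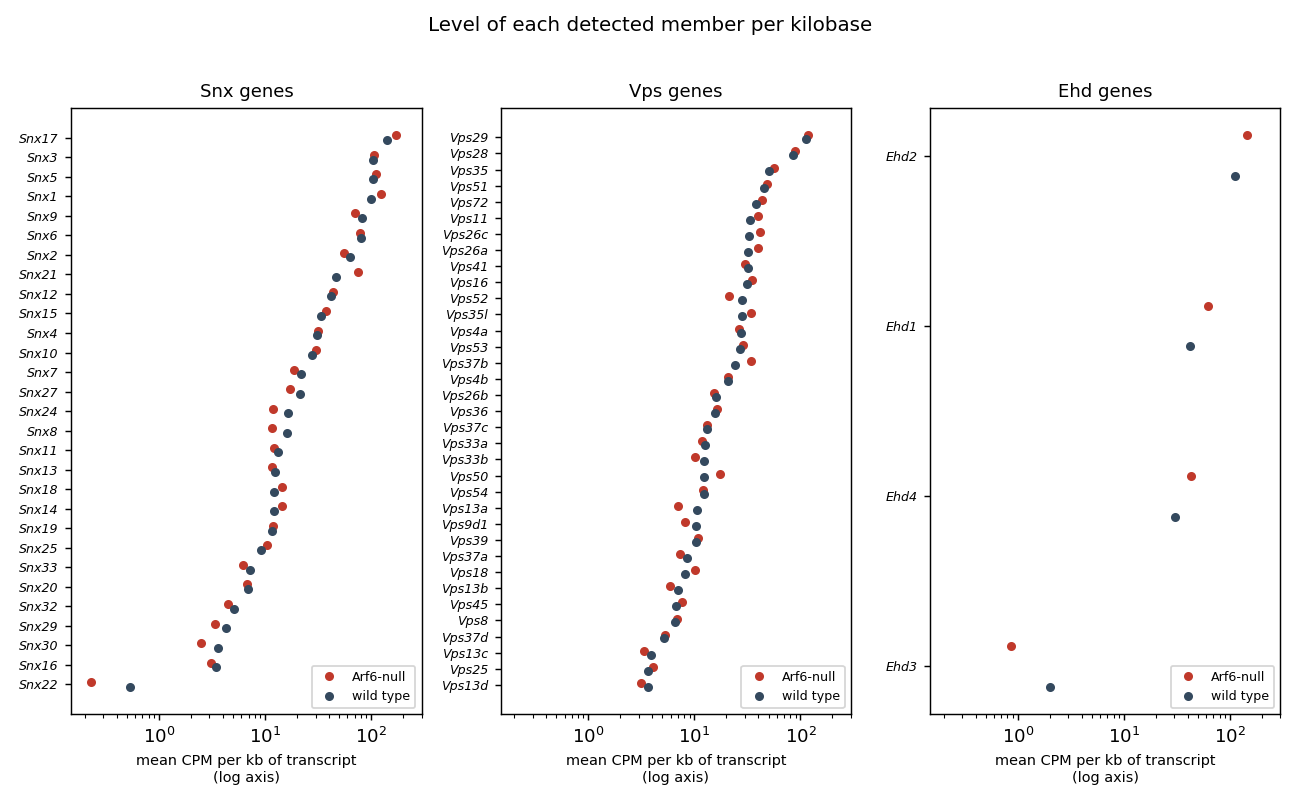
Mean level of each detected member in CPM per kilobase of transcript (x axis, log scale), Snx, Vps and Ehd genes in separate panels, Arf6-null in red and wild type in dark blue. The points of both genotypes lie close together for most members, and Snx22 and Ehd3 are the 2 lowest in the plot. The length is the median of the annotated protein-coding transcripts, short ones included, and the order of members depends on it.

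The retromer core carries cargo from endosomes back to the Golgi and the cell surface. Its 4 subunit genes were little different between genotypes, with log2 fold changes from -0.07 to 0.30 and none at an unadjusted p under 0.05. Vps35, the scaffold of the complex, had a lowest, median and highest level of 160, 200 and 220 CPM in Arf6-null tumors, against 150.4, 174.5 and 214 CPM in wild-type tumors (log2 fold change 0.15, SE 0.11, edgeR adjusted p = 0.433). Ranges overlapped in almost their whole extent. Vps26a, the arrestin-like subunit, had 84.2, 85.8 and 143 CPM in Arf6-null tumors, against 74.2, 84.8 and 94.8 CPM in wild-type tumors (log2 fold change 0.30, SE 0.16, edgeR adjusted p = 0.276). Arf6-null replicates 3 and 4 stood at 143 and 136 CPM, while the other 4 Arf6-null tumors lay between 84.2 and 85.9 CPM, inside the wild-type range. Its paralog Vps26b was less abundant and close in both genotypes, at 54.6 ± 4.92 CPM in Arf6-null and 57.4 ± 4.62 CPM in wild-type tumors. Of the summed VPS26 level per kb of transcript, Vps26a made up 41.3% in Arf6-null and 39.9% in wild-type tumors, and Vps26b 15.9% and 19.8%. Vps26c, the retriever paralog, made up 42.9% and 40.3%. On merged exons the shares were 47.8% and 46.4% for Vps26a, 14.2% and 17.8% for Vps26b, and 38.0% and 35.8% for Vps26c.

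Retriever is a retromer-like complex that returns integrins and LRP1 to the surface with the help of Snx17. Both of its specific subunit genes had higher means in Arf6-null tumors. Vps35l, the scaffold, had 88.4, 98.95 and 105.9 CPM (lowest, median and highest) in Arf6-null tumors, against 72.4, 80.1 and 87.5 CPM in wild-type tumors. All 6 Arf6-null tumors lay above the highest wild-type tumor, replicate 6, by a narrow margin (log2 fold change 0.29, SE 0.08, edgeR adjusted p = 0.066). Vps26c, which was picked out after its values were seen, had 90.8, 105 and 121 CPM in Arf6-null tumors, against 72.8, 83.7 and 92.9 CPM in wild-type tumors. In 5 of 6 Arf6-null tumors it exceeded all wild-type tumors (log2 fold change 0.34, SE 0.09, edgeR adjusted p = 0.0744). DESeq2 and limma-voom called both genes (for Vps35l, adjusted p = 0.0011 with DESeq2 and 0.0408 with limma-voom). The exons of Vps35l overlap those of Knop1 and 1700016B15Rik on the other strand, and the sources used here do not state the strand setting of the counting.

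Snx17, the FERM-domain sorting nexin that hands NPxY-bearing cargo to retriever, was also higher without overlap. It had 125, 130.2 and 144 CPM in Arf6-null tumors, against 99.3, 111 and 117 CPM in wild-type tumors (log2 fold change 0.28, SE 0.07, edgeR adjusted p = 0.0629). Its spread was small in both genotypes, with coefficients of variation of 5.60% in Arf6-null and 6.14% in wild-type tumors. Snx27, which couples PDZ-binding cargo to retromer, pointed the other way at 60.6 ± 4.88 CPM in Arf6-null and 75.0 ± 13.8 CPM in wild-type tumors (edgeR adjusted p = 0.15, picked out after its values were seen). Its ranges overlapped, with 2 of 6 Arf6-null tumors below every wild-type tumor. The CCC complex, which works with retriever, was represented by 12 genes (Commd1 to Commd10, Ccdc22 and Ccdc93), of which 1 fell and 11 did not pass. Of all tested genes 0.561% were called lower. The median log2 fold change of the 12 was 0.11, and 10 were positive. At an unadjusted p under 0.05, 2 were higher and 1 lower, where all tested genes gave 11% and 12.4%. Ccdc93 fell to 31.4 ± 2.21 CPM in Arf6-null tumors, against 43.6 ± 3.24 CPM in wild-type tumors, with no overlap (log2 fold change -0.48, SE 0.08, edgeR adjusted p = 0.0239). This call was lost when Arf6-null replicate 1 or 2, or wild-type replicate 1, 3 or 6, was left out (edgeR adjusted p of 0.0522 to 0.0642). It was also lost without the filter on low counts (0.0669) and without the 3 muscle-rich wild-type libraries (0.106). The same held with Y-linked expression (0.0667) or the muscle score (0.0836) in the fit.

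Among the SNX-BAR genes, whose products shape endosomal tubules, 6 of 9 had a negative log2 fold change and the median was -0.17. Of all tested genes 47.2% had a positive one. Snx30, a partner of Snx4 in recycling and autophagy, had 14.96, 17.6 and 22.1 CPM in Arf6-null tumors, against 22.9, 26.1 and 30.5 CPM in wild-type tumors. The genotypes came close and did not overlap (log2 fold change -0.52, SE 0.12, edgeR adjusted p = 0.0566). Snx8, an endosome-to-Golgi factor, had 17.7, 21.9 and 29.5 CPM in Arf6-null tumors, against 20.96, 30.8 and 38.9 CPM in wild-type tumors, and the ranges overlapped (log2 fold change -0.47, SE 0.16, edgeR adjusted p = 0.115). Snx1, one of the retromer-linked members, was at 171 ± 26.1 CPM in Arf6-null and 140.1 ± 15.7 CPM in wild-type tumors, with 4 of 6 Arf6-null tumors above every wild-type tumor (log2 fold change 0.29, edgeR adjusted p = 0.155). Its partners had smaller differences, with Snx2 at 114.5 ± 19.2 and 132 ± 31.1 CPM in Arf6-null and wild-type tumors, and Snx5 at 275 ± 27.3 and 257 ± 16.9 CPM. Snx4 and Snx6 differed by 0.02 and -0.03 log2 units.

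The SH3-PX-BAR proteins Snx9, Snx18 and Snx33 take part in clathrin-mediated uptake and act with dynamin. Snx9 had 161, 240.4 and 284 CPM in Arf6-null tumors, against 218.5, 264 and 379 CPM in wild-type tumors (log2 fold change -0.22, SE 0.16, edgeR adjusted p = 0.419). Snx18 had 51.4, 66.1 and 70.6 CPM in Arf6-null tumors, against 43.1, 54.3 and 64.2 CPM in wild-type tumors (log2 fold change 0.24, SE 0.11, edgeR adjusted p = 0.208). For Snx18, 5 of 6 Arf6-null tumors exceeded every wild-type tumor, and replicate 3 did not. Snx9 was the main transcript of the trio, with 77.3% of the summed level per kb of transcript in Arf6-null and 80.8% in wild-type tumors.

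Among the sorting nexins with a PX domain but no BAR, FERM or RGS domain, Snx21 had the smallest p of all members. This relative of Snx20 is an endosomal protein. It averaged 108 ± 14.5 CPM in Arf6-null tumors and 67.9 ± 14.8 CPM in wild-type tumors, a 1.59-fold difference (log2 fold change 0.67, SE 0.15, edgeR adjusted p = 0.0528). Arf6-null replicate 6, the lowest of its genotype, was at 87.7 CPM and wild-type replicate 5, the highest of its genotype, at 87.4 CPM, so the gap between the genotypes was narrow. Snx20 was at 11.5 ± 2.52 CPM in Arf6-null and 11.7 ± 5.13 CPM in wild-type tumors (log2 fold change -0.03). Snx29 had 5.58, 7.07 and 8.42 CPM in Arf6-null tumors, against 6.997, 9.21 and 10.7 CPM in wild-type tumors (edgeR adjusted p = 0.22). Snx12 was the steadiest member of the class, at 48.6 ± 1.72 CPM in Arf6-null and 46.2 ± 3.60 CPM in wild-type tumors. Snx15, which adds an MIT domain, was at 29.1 ± 3.20 CPM in Arf6-null and 26.0 ± 2.60 CPM in wild-type tumors (edgeR adjusted p = 0.347).

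The PXA, RGS and PXC domain class sits at contacts of the endoplasmic reticulum with other organelles, and none of its 4 genes had an unadjusted p under 0.05. Snx14, linked to lipid droplets, had 36.5, 43.8 and 51.9 CPM in Arf6-null tumors, against 30.1, 33.3 and 47.5 CPM in wild-type tumors (log2 fold change 0.27, SE 0.13, edgeR adjusted p = 0.248). Snx25 had 26.8, 32.2 and 38.3 CPM in Arf6-null tumors, against 21.5, 26.9 and 37.5 CPM in wild-type tumors (edgeR adjusted p = 0.4). Both overlapped between genotypes. With the muscle score in the fit the log2 fold change of Snx14 was 0.075 in place of 0.27, and that of Snx25 was -0.035 in place of 0.20.

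GARP tethers vesicles at the trans-Golgi network and EARP does so at recycling endosomes; they share Vps51, Vps52 and Vps53. Vps52 was below every wild-type tumor in all 6 Arf6-null tumors. It had 48.4, 55.8 and 65.2 CPM in Arf6-null tumors, against 68.0, 76.6 and 80.4 CPM in wild-type tumors (log2 fold change -0.41, SE 0.09, edgeR adjusted p = 0.056). Vps51 and Vps53 had log2 fold changes of 0.08 and 0.11 (edgeR adjusted p = 0.716 and 0.48). The difference between Vps52 and its partners was not tested. Vps52 lies on chromosome 17 at 33955812 to 33967035 of GRCm38, next to the MHC class I gene H2-K1, which starts at 33996017. Of 46 tested genes within 500 kb, 3 were called, all higher, against 0.586% of all tested genes: Rps18, Ndufa7 and H2-Eb1. Such neighbourhoods of 7 other named members also held 1 or 2 called genes, among them Vps37a with 2 of 6, both lower, and Snx17 with 2 of 32, both higher. Rps18, a ribosomal protein gene, overlaps the exons of Vps52 by 156 bases on the other strand and averaged 694 ± 111 CPM in Arf6-null tumors and 353 ± 44.7 CPM in wild-type tumors, the opposite direction to Vps52. The EARP-specific Vps50 varied more, with 34.6, 65.9 and 106 CPM in Arf6-null tumors, against 38.3, 40.8 and 71.0 CPM in wild-type tumors (log2 fold change 0.49, SE 0.25, edgeR adjusted p = 0.253). Its log2 fold change was 0.30 without Arf6-null replicate 4, 0.31 with the muscle score and 0.18 with Y-linked expression in the fit. Vps54, specific to GARP, was at 51.2 ± 5.23 CPM in Arf6-null and 52.3 ± 10.6 CPM in wild-type tumors.

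HOPS tethers late endosomes to lysosomes and CORVET acts at early endosomes, on a shared core of Vps11, Vps16, Vps18 and Vps33a. Of the 7 tested genes, 2 had an unadjusted p under 0.05, Vps16 and Vps18, both higher. Among all tested genes 23.4% had such a p, and 11% were higher. Vps18 had 34.5, 39.7 and 52.0 CPM in Arf6-null tumors, against 27.1, 33.9 and 36.8 CPM in wild-type tumors (log2 fold change 0.30, SE 0.12; edgeR adjusted p = 0.157). Vps16 had 67.9, 72.6 and 79.8 CPM in Arf6-null tumors, against 58.9, 65.1 and 71.0 CPM in wild-type tumors (log2 fold change 0.17, SE 0.07, edgeR adjusted p = 0.177). For each of them 4 of 6 Arf6-null tumors exceeded every wild-type tumor. The fellow core genes did not all share this: Vps33a was at 50.4 ± 4.54 and 53.4 ± 6.32 CPM in Arf6-null and wild-type tumors (log2 fold change -0.08). Vps33b, which acts in the separate CHEVI complex, had 13.0, 14.5 and 17.8 CPM in Arf6-null tumors, against 17.0, 18.2 and 20.6 CPM in wild-type tumors. Here 5 of 6 Arf6-null tumors lay below every wild-type tumor (log2 fold change -0.31, SE 0.11, edgeR adjusted p = 0.123; DESeq2 adjusted p = 0.0302).

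Some of these genes share a promoter feature that did not enter their choice. The letters TCACGTGA, the core of the element that TFEB-family factors bind in lysosomal genes and the same on both strands, were searched in RefSeq promoter windows of GRCm38.p6, 250 bases before to 50 after each start. Windows were at hand for 46 of the 69 members, and 3 of them held the motif (6.52%), against 239 of 16522 protein-coding genes (1.45%). The shorter CACGTG contained in it occurred in 7 of the 46 (15.2%), against 9.18% of the genes. The 3 members were Vps16, Vps33a and Vps26a, shown here 5′ to 3′ on the gene's strand because 2 of them belong to the same tether core and the other to retromer, with TCACGTGA in capitals. Their positions are chr2:130424070-130424369 (plus strand), chr5:123572966-123573265 (minus strand) and chr10:62486756-62487055 (minus strand).
Vps16: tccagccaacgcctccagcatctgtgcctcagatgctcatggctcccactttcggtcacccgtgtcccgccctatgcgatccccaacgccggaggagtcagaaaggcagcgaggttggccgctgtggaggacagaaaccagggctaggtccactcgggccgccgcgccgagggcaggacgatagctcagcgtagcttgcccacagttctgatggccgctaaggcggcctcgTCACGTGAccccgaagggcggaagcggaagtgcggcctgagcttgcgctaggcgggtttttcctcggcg
Vps33a: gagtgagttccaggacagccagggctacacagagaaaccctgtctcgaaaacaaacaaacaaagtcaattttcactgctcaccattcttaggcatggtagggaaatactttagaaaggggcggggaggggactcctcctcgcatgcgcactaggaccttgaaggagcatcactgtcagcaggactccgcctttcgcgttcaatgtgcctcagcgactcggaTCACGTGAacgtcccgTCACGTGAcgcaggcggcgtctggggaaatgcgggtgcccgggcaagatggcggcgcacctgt
Vps26a: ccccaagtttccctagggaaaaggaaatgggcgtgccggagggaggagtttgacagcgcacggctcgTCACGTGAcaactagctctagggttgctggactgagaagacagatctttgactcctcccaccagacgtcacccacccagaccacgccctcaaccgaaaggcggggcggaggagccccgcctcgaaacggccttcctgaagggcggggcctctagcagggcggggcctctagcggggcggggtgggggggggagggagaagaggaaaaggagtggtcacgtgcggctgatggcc
The first base of the motif lies 19 bases before the start in Vps16 and 183 in Vps26a, and Vps33a carries 2 copies, the first 29 bases before the start. Vps26a has a second annotated start, whose window (not printed) holds another copy 152 bases before it. Their log2 fold changes were 0.17, -0.08 and 0.30 in the order Vps16, Vps33a and Vps26a, so members with the motif did not share a direction.

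ESCRT-I and ESCRT-II sort ubiquitinated cargo into multivesicular bodies, and the VPS4 ATPases take the ESCRT polymer apart. None of these 9 genes had an unadjusted p under 0.05. Vps37b, an ESCRT-I subunit, had 55.6, 78.0 and 139.5 CPM in Arf6-null tumors, against 34.8, 49.9 and 115.5 CPM in wild-type tumors (log2 fold change 0.49, SE 0.30, edgeR adjusted p = 0.341), and its log2 fold change was 0.13 without the 3 muscle-rich wild-type libraries. Vps37a had 38.2, 49.3 and 50.9 CPM in Arf6-null tumors, against 43.1, 55.7 and 65.5 CPM in wild-type tumors (edgeR adjusted p = 0.275). Arf6-null replicate 4 and wild-type replicate 2 were the highest of their genotypes for both Vps37b and Vps50. Vps25 of ESCRT-II had only 63 to 164 counts per library, and 1103 bases of its exons are shared with Ramp2 on the same strand, where counting can drop reads. It averaged 3.56 ± 0.36 CPM in Arf6-null and 3.22 ± 0.485 CPM in wild-type tumors. Vps4a was at 57.0 ± 4.001 and 60.4 ± 7.21 CPM in Arf6-null and wild-type tumors, and Vps4b at 95.2 ± 7.51 and 94.3 ± 9.17 CPM. Of 21 ESCRT partner genes, none was called, 9 had a higher mean at an unadjusted p under 0.05 and none a lower one, where all tested genes gave 11% and 12.4%, and the median log2 fold change was 0.25. The smallest p was that of Chmp4c, an ESCRT-III gene of cell abscission, at 6.52 ± 5.45 CPM in Arf6-null and 1.10 ± 0.77 CPM in wild-type tumors (edgeR adjusted p = 0.0674).

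All 4 VPS13 genes, whose products move lipids between organelles at membrane contacts, had negative log2 fold changes, from -0.59 to -0.23. The log2 fold change was positive in 47.2% of all tested genes. Only Vps13a had an unadjusted p under 0.05, where 23.4% of all tested genes did. Vps13b and Vps13c had an edgeR adjusted p of 0.537 and 0.494. Vps13a had 17.4, 20.1 and 24.3 CPM in Arf6-null tumors, against 18.7, 34.8 and 38.2 CPM in wild-type tumors (log2 fold change -0.59, SE 0.19, edgeR adjusted p = 0.107; DESeq2 adjusted p = 0.0424). The wild-type tumors fell into separate levels: replicates 2 and 4 were at 18.7 and 20.7 CPM, within the Arf6-null range, and the other 4 lay between 34.8 and 38.2 CPM. Those same replicates had Y-linked scores of 5.53 and 5.81, against 2.36 or less in the other wild-type tumors. Among Arf6-null tumors, replicate 6 had a Y-linked score of -2.74 and 23.6 CPM of Vps13a, within the range of the others. With Y-linked expression in the fit the log2 fold change of Vps13a was -0.32 (adjusted p = 0.346). Vps13d had 43.3, 48.2 and 55.3 CPM in Arf6-null tumors, against 47.9, 55.2 and 70.0 CPM in wild-type tumors (log2 fold change -0.24, SE 0.11, edgeR adjusted p = 0.228).

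Vps genes outside these complexes, 3 in all, were mixed. Vps9d1, which carries the domain of RAB5-type exchange factors, had 19.1, 23.3 and 26.5 CPM in Arf6-null tumors, against 24.9, 30.0 and 34.2 CPM in wild-type tumors, with 4 of 6 Arf6-null tumors below every wild-type tumor (log2 fold change -0.36, SE 0.11, edgeR adjusted p = 0.0989). Vps72 carries a sorting name and encodes a subunit of a chromatin remodeller that handles the histone variant H2A.Z. It had 60.1, 62.8 and 72.1 CPM in Arf6-null tumors, against 49.2, 56.8 and 59.0 CPM in wild-type tumors, without overlap (log2 fold change 0.20, SE 0.07, edgeR adjusted p = 0.142). Vps45, a partner of endosomal syntaxins, was at 20.1 ± 2.703 CPM in Arf6-null and 17.8 ± 1.94 CPM in wild-type tumors.

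All 4 EHD genes had an unadjusted p under 0.05, 3 with a higher mean and Ehd3 with a lower one, against 23.4% of all tested genes. The same held for both retriever genes and both tested SNX-FERM genes. Ehd2, which sits at the neck of caveolae, had 357, 392.5 and 477 CPM in Arf6-null tumors, against 278, 293 and 352 CPM in wild-type tumors. All 6 Arf6-null tumors exceeded all 6 wild-type tumors, by 1.31-fold on average (log2 fold change 0.39, SE 0.10, edgeR adjusted p = 0.0615). Ehd1, which releases vesicles from the recycling endosome, had 157, 194 and 265 CPM in Arf6-null tumors, against 108, 133 and 180.3 CPM in wild-type tumors. Only Arf6-null replicate 6 lay inside the wild-type range (log2 fold change 0.56, SE 0.16, edgeR adjusted p = 0.0822). Ehd4, its close relative, had 100.2, 155 and 219.6 CPM in Arf6-null tumors, against 73.1, 115 and 146 CPM in wild-type tumors, with 3 of 6 above all wild-type tumors (log2 fold change 0.50, SE 0.22, edgeR adjusted p = 0.2). Ehd3 was scarce, at 1.49, 3.08 and 4.89 CPM in Arf6-null tumors, against 3.55, 7.72 and 9.96 CPM in wild-type tumors (log2 fold change -1.20, SE 0.33, edgeR adjusted p = 0.0735). Wild-type replicate 4 was the single wild-type tumor within the Arf6-null range of Ehd3. Of the summed EHD level per kb of transcript, Ehd2 made up 57.9% in Arf6-null and 59.9% in wild-type tumors, and Ehd3 0.345% and 1.08%. On merged exons Ehd2 made up 44.7% and 46.9%, and Ehd3 0.277% and 0.879%.

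**Figure D4:**
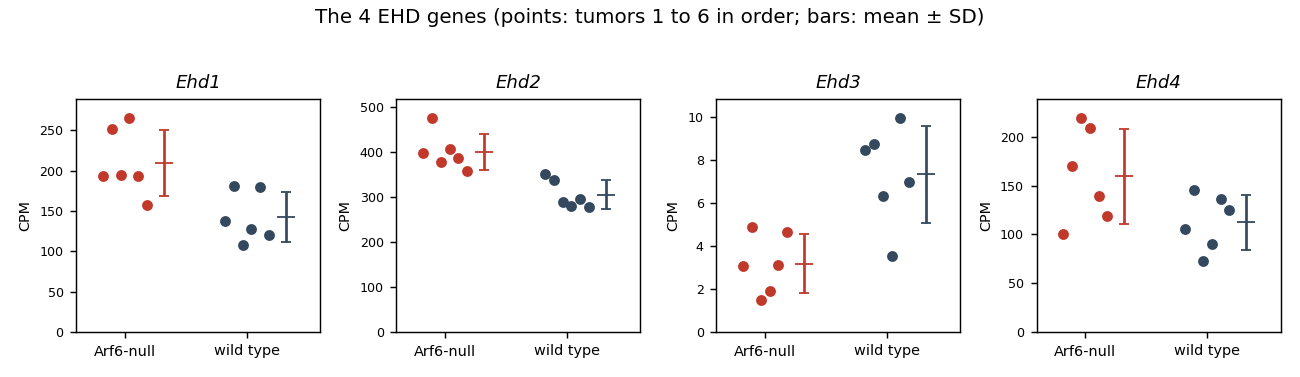
CPM (y axis, from 0) of the 4 EHD genes, with 1 point per tumor, Arf6-null left and wild type right, and the mean ± SD beside the points (n = 6 each). Ehd2 does not overlap between genotypes, and Ehd3 is the one with the lower mean in Arf6-null tumors.

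Genes that work beside the EHD proteins gave no calls. Among 7 tested caveolae genes none passed, with 1 higher (Cav2) and 1 lower (Ror1) at an unadjusted p under 0.05. All tested genes gave 11% higher and 12.4% lower at that level. Cav1, the main caveolar coat gene, was at 404 ± 126 CPM in Arf6-null and 359 ± 101 CPM in wild-type tumors, and Cavin1 at 321 ± 53.6 and 344 ± 77.9 CPM, and both overlapped between genotypes. Ror1, which supports caveolin and cavin at the membrane, was at 6.00 ± 2.60 CPM in Arf6-null and 17.5 ± 12.6 CPM in wild-type tumors, without overlap (log2 fold change -1.55, edgeR adjusted p = 0.0778). Cav2 was at 150.1 ± 40.4 CPM in Arf6-null and 85.8 ± 25.02 CPM in wild-type tumors (edgeR adjusted p = 0.0749). Of 14 genes of EHD partners and tubular recycling, none had an unadjusted p under 0.05, and Rbsn, an early endosome RAB effector, had the smallest p (edgeR adjusted p = 0.22).

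The remaining partner lists held no call either. Of 8 WASH complex genes, which build actin on retromer domains, 1 was higher at an unadjusted p under 0.05: Washc2, at 273 ± 85.6 CPM in Arf6-null and 156 ± 55.1 CPM in wild-type tumors (edgeR adjusted p = 0.109). Of 14 tether partners 3 were higher and 3 lower at that level, and Tgfbrap1, a CORVET subunit gene, was at 24.3 ± 2.18 CPM in Arf6-null and 34.6 ± 7.83 CPM in wild-type tumors (edgeR adjusted p = 0.0727). Of 18 cargo genes of retromer and sorting nexins 2 were higher and 2 lower, with a median log2 fold change of -0.18. For comparison, 11% of all tested genes were higher and 12.4% lower at that level.

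The count of called members moved when single libraries were left out. Without wild-type replicate 2 edgeR called 5 of 68 members (Ehd2, Snx17, Snx21, Vps13a and Vps52), where it called 766 of all 16321 tested genes. Without Arf6-null replicate 6 it called Ehd2 and Snx21, and 672 of all 16308 genes. Without wild-type replicate 5 it called Snx21, and 537 of all 16446 genes. As in the main fit, none was called without the 3 muscle-rich wild-type libraries, nor with the muscle score or Y-linked expression as a covariate. With the muscle score in the fit the direction turned in 13 of the 68 members, and in 9 with Y-linked expression. Among members described above, the log2 fold change with the muscle score was 0.11 for Vps37b, 0.025 for Vps35, -0.15 for Snx29, -0.20 for Vps9d1, -0.72 for Snx8 and -0.42 for Snx9. For the 7 members without overlap it was 0.63 for Snx21, -0.55 for Snx30, -0.29 for Vps52, 0.31 for Ehd2, 0.26 for Snx17, 0.22 for Vps35l and 0.22 for Vps72. The edgeR adjusted p of these 7 ran from 0.216 to 0.408.

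**Figure D5:**
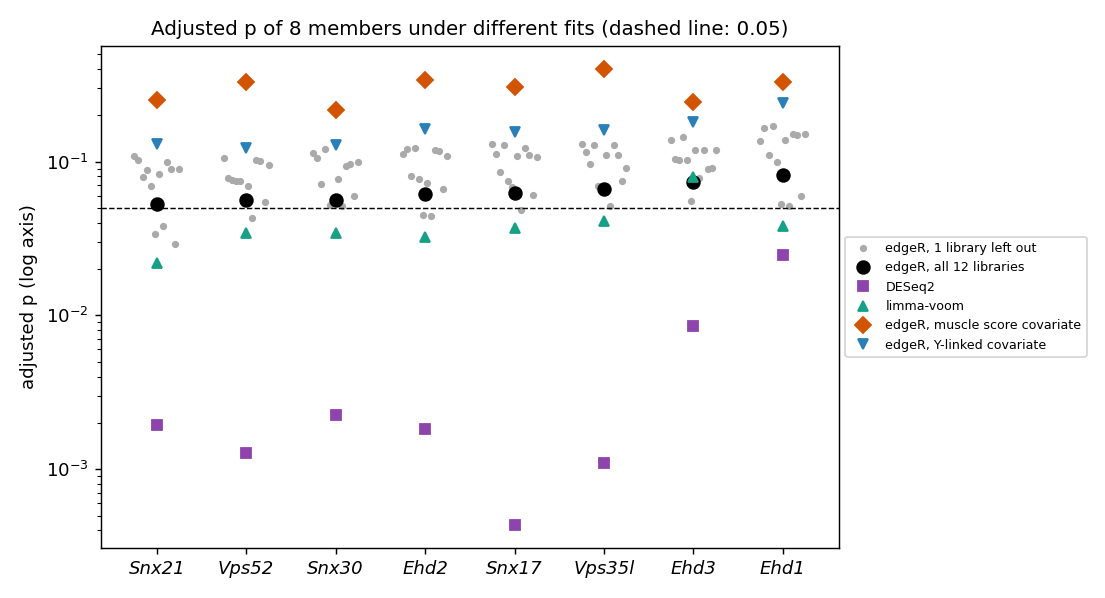
Adjusted p (y axis, log scale) of 8 members under edgeR with all 12 libraries, edgeR with 1 library left out, edgeR with a muscle or Y-linked covariate, DESeq2 and limma-voom. All values of the main edgeR fit, with all 12 libraries and no covariate, lie above the dashed line at 0.05. All DESeq2 values lie below it.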

How the data were processed

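The authors deposited raw counts of reads per Ensembl gene for 12 libraries. Per the submitters' processing notes the tools were STAR 2.7.3a, featureCounts 1.6.3 and DESeq2 1.26.0 on GRCm38 (mm10), and per the labels' protocols libraries were TruSeq Stranded mRNA; the sources used here do not give the counting options. Symbols, positions and lengths came from GENCODE M21.

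Genes passing filterByExpr (minimum 10 counts; 16225 genes, 99.9% of counts) were scaled by TMM and tested with edgeR 4.0.16 (robust quasi-likelihood F test, R 4.3.3), with Benjamini-Hochberg adjustment and a threshold of 0.05. Each standard error is the log2 fold change divided by the square root of F. Scores are mean log2 CPM (prior count 2), compared by exact permutation over 924 splits (scipy 1.17.1). Alternatives included limma 3.58.1 and DESeq2 1.42.0. Y-linked expression as a covariate was the log2 of summed CPM plus 0.5. The edgeR fit was tested on simulated counts. It called 47% of 100 genes changed 2-fold and 78% of 100 changed 4-fold, with 8 false calls among 16043 genes. With no gene changed it made 0 calls. Smaller changes were not simulated.

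Per-library values are given for all Ehd genes, any member past the threshold, the 2 members with the smallest p of each role with 3 or more tested genes, and the 1 of smaller roles. From each partner list the genes past the threshold, otherwise the 1 with the smallest p, were named. The gene so chosen from the cargo list is not reported here. Members, roles and lists were chosen with earlier results of these data known.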

Additional observations from a re-analysis of the deposited data

Results flagged for a closer look

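Each genotype's 6 values were searched for 1 library that stood apart, over 84 sets (named members on the log2(CPM + 1) scale, marker scores and library totals). This singled out 4 sets, and chance alone gives about 1 in 20. For Snx18 it was Arf6-null replicate 3, at 5.71, while the remaining Arf6-null tumors spanned 6.04 to 6.16. For Vps4a it was Arf6-null replicate 1, at 6.03, while the remaining ones spanned 5.77 to 5.87. For Vps72 it was Arf6-null replicate 3, at 6.19, with the remaining ones at 5.93 to 6.03. For the Y-linked score it was Arf6-null replicate 6, at -2.74, with the remaining ones at 4.51 to 5.67.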

How the results depend on the processing

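The count of Snx, Vps and Ehd genes called, 0 in the main fit, was taken under 21 alternatives. It became 2 of 68 with upper-quartile scaling (Snx30 and Vps52), against 210 of all 16225 genes. With a filter of 10 CPM in 6 libraries it became 1 of 61 (Vps52), against 124 of all 10124 genes. It became 13 with DESeq2 and 8 with limma-voom, and ran from 0 to 5 when 1 library was left out. Over all genes the 186 calls became 1989 with DESeq2, 996 with limma-voom, 30 with a Y-linked covariate and 20 with a muscle covariate, and 35 without the 3 muscle-rich wild-type libraries. When 1 library was left out they ran from 25 to 766. The cause was not tested. Of the 68 members, 13 changed direction with the muscle score, 10 without the muscle-rich libraries, 9 with the Y-linked covariate and 6 with upper-quartile scaling. Directions of named genes turned in 3 fits: Snx25 to -0.035 and Vps25 to -0.043 with the muscle score, and Vps25 to -0.0061 without the muscle-rich libraries. Snx22, with few reads, had the largest standard error of the members (0.64). No paired analysis was possible because the labels give no number that ties a tumor of one genotype to one of the other.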
